A study of Mus musculus with 38 samples.

Results

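The comparison described here is that of oligodendrocyte precursor cells (OPCs) of Cre-negative mice taken 6 h into the light phase, at zeitgeber time 6 (ZT6), with those taken when the lights came on (ZT0). It was chosen by the labels of the libraries: 5 at ZT6 and 4 at ZT0, 9 of the 38 libraries of the study, with all 54532 genes of the count table, of which 22798 had enough counts to be tested. Zeitgeber time counts hours from lights on in a cycle of 12 h of light and 12 h of darkness. OPCs are the dividing glial cells that mature into the oligodendrocytes that make myelin. They came from the forebrain of mice at postnatal days 6 to 7, and each library pooled 2 mice. The cells were purified on plates, with a lectin that removes microglia and endothelial cells and then an antibody against PDGFRA, a growth factor receptor on the OPC surface. The mice of these 9 libraries have the genotype NG2:Cre-;Bmal1fl/fl and are called WT. Both copies of their clock gene Bmal1, listed as Arntl, are floxed but not recombined by Cre. In 11 further libraries at ZT0 and ZT6 (4 and 7) the genotype is NG2:Cre+;Bmal1fl/fl, called KO. There the NG2 (Cspg4) promoter drives Cre, which acts from embryonic development on, and the deletion takes out the DNA-binding domain of BMAL1, which the submitters describe as a hypomorph. These were used only to set the same contrast beside the WT values.

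The circadian clock is a feedback loop of transcription. BMAL1 and CLOCK bind E-box sequences and activate the Per, Cry, Nr1d and Ciart genes, whose proteins then repress BMAL1 and CLOCK or the Arntl gene. Several clock genes, Per1 above all, are also induced rapidly by hormones, cAMP and cell stress, as are the immediate early genes, the inhibitors of NF-kB signalling and the heat shock chaperones.

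The WT libraries held 22.5 to 26.6 M (mega) counts at ZT0 and 21.6 to 34.3 M counts at ZT6. Levels are given as CPM, the counts of a gene per M counts of its library after scaling between libraries, and are not divided by gene length, so they compare libraries and not genes. Counts of ribosomal RNA genes made up 0.830 to 1.34% of the total at ZT0 and 0.505 to 0.664% at ZT6, so the groups did not overlap in this share, and its part in the results was not tested beyond adding it as a covariate, which left 499 genes called. By their X- and Y-linked transcripts, ZT0 replicate 1 and ZT6 replicate 2 held RNA of females only, although the labels state that both sexes were pooled. ZT0 replicate 1 also had 29763 genes with at least 1 count, against 24290 to 24923 in the other ZT0 libraries. Without both single-sex libraries, and the other 11 in the rest of the study, 359 genes were called. The sample labels used here name no collection or purification session. Handling of the cells at each time therefore cannot be told apart from time of day.

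Between ZT0 and ZT6, 588 of the 22798 genes tested (2.58%) changed at a false discovery rate of 0.05. Of these, 502 were higher at ZT6 (2.2% of the genes tested) and 86 were lower (0.377%). The gene lists below are short, so no call or a single call in a list is near the 2.58% over all genes tested. Among the genes that rose, 213 did so by more than 2-fold and 45 by more than 4-fold, and the median log2 fold change of the 502 was 0.88. The genes that fell had a median of -1.24. The median of all genes tested was -0.02. Every ZT6 library lay above every ZT0 library for 471 of the 502 higher genes and below for 48 of the 86 lower ones; over all genes tested, 3.76% were separated upward and 2.02% downward. With library size alone as the scaling, which moved the median of all genes to -0.12, 380 genes were higher and 231 lower. Adjusted p-values come from the quasi-likelihood test of edgeR, adjusted by Benjamini-Hochberg over all genes tested, and log2 fold changes are ZT6 over ZT0 with their standard error (SE).

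**Figure D1:**
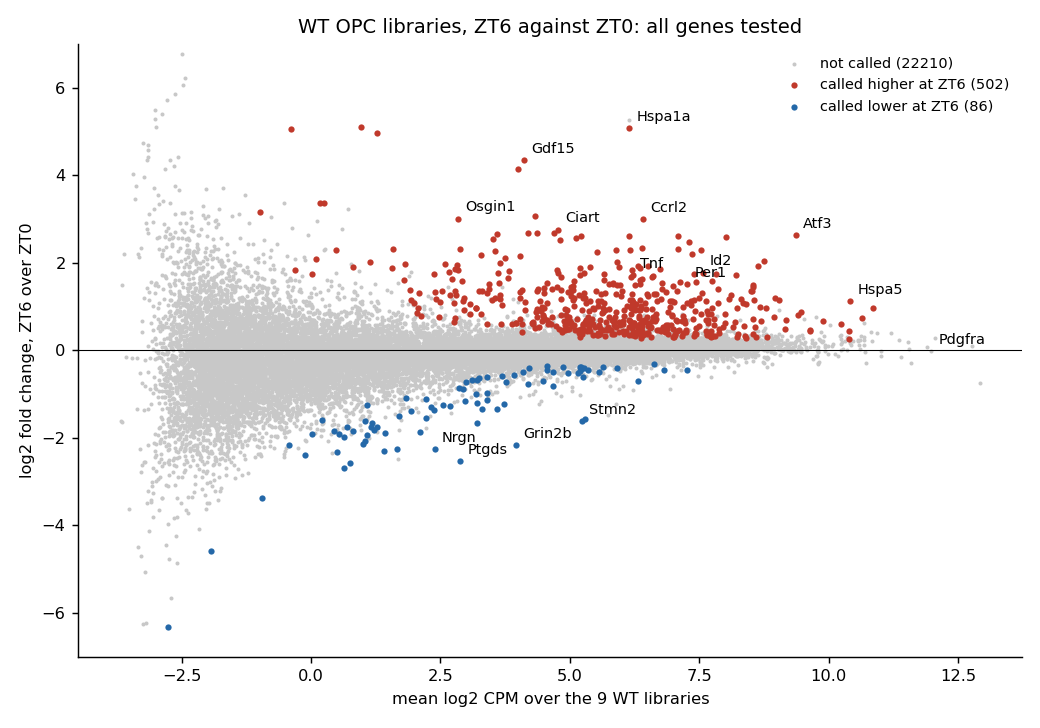
Log2 fold change (ZT6 over ZT0, vertical axis) against mean log2 CPM over the 9 WT libraries (horizontal axis) for each of the 22798 genes tested, 1 point a gene. The 502 genes called higher (red) reach into the most abundant genes, while most of the 86 called lower (blue) lie to the left, at low counts.

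The promoters of 5 of the genes that rose are shown because each holds a motif of clock, NF-kB, AP-1 or cAMP-responsive factors; they were chosen for holding it. Each is shown as the 250 bases before the RefSeq transcription start (GRCm38.p6), 5′ to 3′ on the gene's strand, which is the minus strand for all 5. Capitals in Ciart and Cry1 mark the E-box CACGTG, in Nfkbia and Cxcl10 the kB site of NF-kB on either strand, in Cxcl10 also the AP-1 site TGANTCA, and in Ppp1r15a the cAMP response element TGACGTCA.
Ciart (chr3:95882229-95882478): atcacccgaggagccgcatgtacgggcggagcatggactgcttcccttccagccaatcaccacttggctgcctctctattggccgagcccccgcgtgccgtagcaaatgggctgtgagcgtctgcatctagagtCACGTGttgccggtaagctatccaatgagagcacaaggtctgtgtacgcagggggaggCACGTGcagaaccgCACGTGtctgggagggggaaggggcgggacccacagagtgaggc
Cry1 (chr10:85185055-85185304): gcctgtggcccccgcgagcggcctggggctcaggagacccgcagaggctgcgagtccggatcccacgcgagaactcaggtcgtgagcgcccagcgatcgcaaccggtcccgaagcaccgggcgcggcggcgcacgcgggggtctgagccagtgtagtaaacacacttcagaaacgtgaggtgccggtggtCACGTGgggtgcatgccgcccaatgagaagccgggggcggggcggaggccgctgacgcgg
Nfkbia (chr12:55492648-55492897): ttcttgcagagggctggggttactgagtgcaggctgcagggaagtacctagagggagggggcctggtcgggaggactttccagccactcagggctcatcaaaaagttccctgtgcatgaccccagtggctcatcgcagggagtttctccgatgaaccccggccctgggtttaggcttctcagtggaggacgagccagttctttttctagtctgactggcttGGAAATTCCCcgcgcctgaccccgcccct
Cxcl10 (chr5:92348890-92349139): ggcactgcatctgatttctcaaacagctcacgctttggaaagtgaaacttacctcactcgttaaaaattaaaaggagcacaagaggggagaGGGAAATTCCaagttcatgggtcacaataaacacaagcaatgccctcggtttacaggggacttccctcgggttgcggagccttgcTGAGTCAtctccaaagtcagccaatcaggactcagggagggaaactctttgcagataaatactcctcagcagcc
Ppp1r15a (chr7:45526269-45526518): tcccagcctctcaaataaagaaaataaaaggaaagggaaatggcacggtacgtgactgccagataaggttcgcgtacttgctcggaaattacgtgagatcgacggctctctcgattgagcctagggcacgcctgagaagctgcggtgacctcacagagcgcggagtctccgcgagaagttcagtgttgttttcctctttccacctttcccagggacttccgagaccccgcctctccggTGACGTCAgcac
Ciart holds 3 E-boxes, beginning 116, 58 and 44 bases upstream of the start, and Cry1 holds 1 at 60 bases. The kB site of Nfkbia begins 29 bases upstream, the kB and AP-1 sites of Cxcl10 begin 159 and 74 bases upstream, and the cAMP response element of Ppp1r15a begins 12 bases upstream.

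A promoter could be matched for 12201 of the 15821 protein-coding genes tested, among them 380 that rose and 56 that fell. The E-box CACGTG, searched on both strands as all motifs were, occurred in 63 of the 380 promoters of genes that rose (16.6%), in 972 of all 12201 (7.97%) and in 4 of the 56 of genes that fell (7.14%). Where the RefSeq start lay within 100 bases of the gene end in the deposited table, the shares were 48 of 293 (16.4%) and 757 of 9229 (8.2%). The cAMP response element was in 4.47% of the promoters of genes that rose and 2.54% of all, the AP-1 site in 6.05% and 4.38%, the kB site in 1.58% and 1.11%, and the C/EBP-ATF site TGATGNAA in 2.89% and 2.12%. The last was also in 7.14% of the promoters of genes that fell. The heat shock element was in 0.263% and 0.32%, and the D-box TTATGNAA, the motif of DBP and its repressor NFIL3, in 0.789% and 1.94%. These shares are descriptions of a 250-base window and were not tested; a match is not a binding site.

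Of the 25 genes of the core clock list, 7 rose and none fell, with a list median of 0.13. They were the repressors Ciart, Nfil3, Bhlhe41, Nr1d1 and Nr1d2, and Per1 and Cry1 of the negative limb. The activators Arntl and Clock, and Per2 and Per3, did not pass the test.

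Ciart, a repressor of the CLOCK and BMAL1 pair (chromosome 3, 95878503 to 95882251, GRCm38), had 10.9, 8.31, 8.58 and 10.3 CPM in the ZT0 libraries and 71.4, 66.4, 59.9, 56.4 and 67.7 CPM in the ZT6 libraries. The lowest ZT6 library was more than 5 times the highest ZT0 library. The mean was 9.52 ± 1.26 CPM (SD, n = 4) at ZT0 and 64.4 ± 6.08 CPM (SD, n = 5) at ZT6, 6.76-fold higher (log2 fold change 2.76, SE 0.45, adjusted p = 0.000135).
Per1, a period protein whose gene also responds to hormones and cAMP, had 124, 83.2, 69.0 and 75.7 CPM at ZT0 and 254, 352, 256, 221 and 176 CPM at ZT6. All ZT6 libraries were above all ZT0 libraries, and the rise was 2.86-fold (log2 fold change 1.52, SE 0.29, adjusted p = 0.000864).
Nr1d1, which encodes the nuclear receptor REV-ERB alpha that represses Arntl, rose 2.79-fold, from 18.9 ± 2.77 CPM to 52.8 ± 6.56 CPM (adjusted p = 0.000309). Its relative Nr1d2 rose 1.51-fold (adjusted p = 0.0186), from 56.5, 68.7, 58.4 and 55.3 CPM to 93.7, 105, 91.4, 85.4 and 74.5 CPM. Nfil3, the repressor at D-boxes, rose 3.39-fold from 14.1 ± 4.78 to 47.9 ± 8.66 CPM, and Bhlhe41, a repressor at E-boxes also known as DEC2, rose 2.82-fold from 34.5 ± 10.3 to 97.1 ± 11.8 CPM. The related Bhlhe40 was at 24.3 ± 11.3 and 25.7 ± 2.36 CPM and was not called.
Cry1, a cryptochrome and repressor, had 24.7, 21, 22 and 28.2 CPM at ZT0 and 35.2, 36.0, 33.4, 39.1 and 35.9 CPM at ZT6, 1.5-fold higher without overlap (adjusted p = 0.0153). The calls of Cry1 and Nr1d2 were the least firm of the 7. With library size alone as the scaling their adjusted p-values were 0.0858 and 0.0756. Cry1 was not called without ZT0 replicate 2 (adjusted p = 0.0949) or ZT0 replicate 3 (0.0544), nor Nr1d2 without ZT0 replicate 1 (0.0697), ZT0 replicate 4 (0.0695) or ZT6 replicate 2 (0.0775).

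Arntl itself had 33.2, 21.8, 19.4 and 22.1 CPM at ZT0 and 20.7, 21.2, 19.3, 20.2 and 21.4 CPM at ZT6 (log2 fold change -0.23, SE 0.12, adjusted p = 0.486). The groups overlapped, and ZT0 replicate 1 was the highest. Per2 was at 33.0 ± 6.64 and 39.3 ± 8.31 CPM and Per3 at 50.8 ± 15.4 and 52.5 ± 7.38 CPM, with overlap in both. Dbp, an output gene of the loop and activator at D-boxes, was at 12.9 to 16.1 CPM at ZT0 and 17.6 to 21.9 CPM at ZT6. These ranges did not overlap, but the change of 0.46 (SE 0.17) had an adjusted p of 0.183. Rorb, an activator of Arntl, was at 13.4 to 18.7 CPM and 9.72 to 13.3 CPM, separated downward but not called (log2 fold change -0.51, adjusted p = 0.127).
At the other WT times Ciart was at 20.5 ± 10.4 CPM at ZT12 (n = 6) and 5.94 ± 0.75 CPM at ZT18 (n = 4), Per1 at 116 ± 23.5 and 48.8 ± 11.2 CPM, and Nr1d1 at 26.5 ± 4.78 and 18.5 ± 1.46 CPM. In each of these 3 genes ZT6 was the highest of the 4 times, and its range did not overlap that of any other time.

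**Figure D2:**
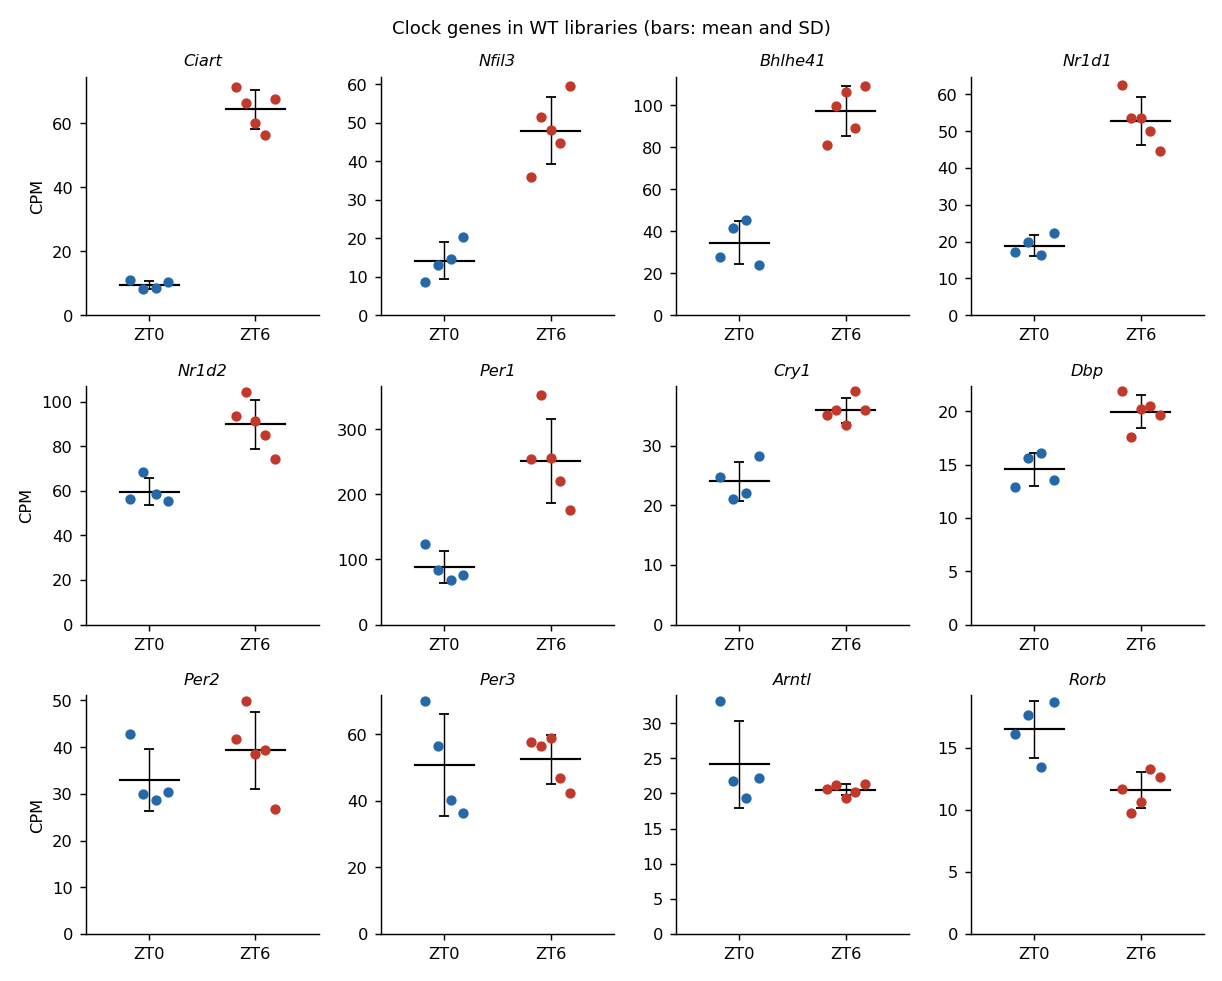
CPM (linear axis from 0) of 12 clock genes in the 4 ZT0 (blue) and 5 ZT6 (red) WT libraries, 1 point a library, with the mean (long bar) and SD. The upper 7 genes, from Ciart to Cry1, were called higher at ZT6 and do not overlap between times; Per2, Per3 and Arntl overlap, and Dbp and Rorb are separated in opposite directions without a call.

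Of 16 tested genes of a list of BMAL1 outputs, 4 rose and none fell (list median 0.23). Wee1, a kinase that holds back entry into mitosis and a classical clock output, rose from 23.7 ± 0.978 to 38.6 ± 4.89 CPM (adjusted p = 0.00428). Cdkn1a, the cell cycle inhibitor p21, rose from 50.7 ± 20.8 to 108 ± 10.7 CPM (adjusted p = 0.00373). Lonrf3 and Coq10b were the other two. The call of Coq10b was lost without the single-sex libraries (adjusted p = 0.229), without ZT0 replicate 1 (0.0829) and without ZT6 replicate 2 (0.0591).

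Immediate early genes are transcription factors and signalling genes that are switched on without new protein synthesis. Of 26 on the list, 11 rose and none fell, with a median of 0.94. Atf3, a stress-induced factor of the CREB family (chromosome 1, 191170296 to 191218039), had 244, 303, 245 and 178 CPM at ZT0 and 1408, 1715, 1754, 1376 and 1288 CPM at ZT6. The lowest ZT6 library was over 4 times the highest ZT0 library, and the rise was 6.22-fold (log2 fold change 2.64, SE 0.34, adjusted p = 2.31e-05). Maff, a small MAF protein, had 26.7, 26.3, 21.3 and 29.6 CPM against 155, 201, 159, 138 and 148 CPM, 6.16-fold higher (adjusted p = 2.31e-05). The Krüppel-like factors Klf2 (119 ± 38.6 to 398 ± 59.4 CPM) and Klf6 (216 ± 57.7 to 593 ± 89.9 CPM) rose 3.35-fold and 2.75-fold.
The members most often used as markers of recent activation were not among them. Fos had 1122, 1346, 1681 and 584 CPM at ZT0 and 1168, 1376, 1514, 1400 and 1068 CPM at ZT6 (log2 fold change 0.14, SE 0.29, adjusted p = 0.928). Egr1 was at 796 to 2274 and 2167 to 2405 CPM (adjusted p = 0.698) and Jun at 622 to 1923 and 1783 to 2309 CPM (adjusted p = 0.328). In all 3 genes ZT0 replicate 4 was the lowest of the 9 libraries. Fos, Egr1 and Jun were named after their values were seen. The number of the list's genes called ranged from 7 to 18 over 21 alternatives.
Among feedback inhibitors of MAP kinase signalling, 5 of 17 rose and none fell (list median 0.14). Dusp5, a nuclear phosphatase of ERK, went from 5.76, 7.37, 4.73 and 12.3 CPM to 39.4, 61.5, 37.3, 56.0 and 48.6 CPM, 6.43-fold higher (log2 fold change 2.68, SE 0.38, adjusted p = 2.99e-05). Dusp2 rose 3.82-fold (43.6 ± 1.59 to 166 ± 22.5 CPM) and Dusp4 2.61-fold (17.0 ± 7.35 to 44.5 ± 3.32 CPM).

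Genes of NF-kB signalling and inflammation had the highest median of the 36 lists, 1.42. Of its 24 members 16 rose and none fell. Among the feedback inhibitors, Nfkbia, which encodes the inhibitor that holds NF-kB in the cytoplasm, rose from 114, 175, 173 and 95.0 CPM to 291, 467, 403, 282 and 383 CPM, 2.62-fold (adjusted p = 0.00114). Tnfaip3, the ubiquitin-editing enzyme A20, rose from 156 ± 24.5 to 514 ± 127 CPM, 3.3-fold (adjusted p = 0.000127). Both were separated between the times.
The cytokine Tnf had 25.0, 42.7, 43.5 and 45.8 CPM at ZT0 and 109, 169, 141, 112 and 114 CPM at ZT6, 3.29-fold higher (log2 fold change 1.72, SE 0.29, adjusted p = 0.00025). The chemokines Ccl3 and Ccl4 rose from 193 ± 53.3 to 736 ± 169 CPM and from 78.9 ± 28.1 to 389 ± 79.1 CPM. Cxcl10, an interferon- and NF-kB-induced chemokine, had 7.82, 16, 11.5 and 23.0 CPM against 63.2, 151, 109, 72.5 and 54.4 CPM (log2 fold change 2.62, SE 0.52, adjusted p = 0.00133). Ptgs2, the inducible cyclooxygenase, rose 6.43-fold from 6.60 ± 2.11 to 42.4 ± 6.07 CPM, and Ccrl2, an atypical chemoattractant receptor, 7.96-fold from 27.1 ± 2.28 to 216 ± 34.0 CPM. In none of these genes did the groups overlap.
Il1b, named after its values were seen, differed: its ZT0 values were 2.82, 3.38, 1.59 and 35.1 CPM against 19.2 to 44.7 CPM at ZT6, so that ZT0 replicate 4 lay within the ZT6 range (adjusted p = 0.514). Without that library the adjusted p was 0.0282. Of 16 interferon response genes only Irf1, a transcription factor of that response, rose, from 24.1 ± 3.58 to 55.5 ± 7.73 CPM (adjusted p = 0.00345), and the list median was -0.12.
Several of these genes are strongly expressed by microglia. Of 20 microglial markers none was called in either direction, but 18 had positive values, against 46.3% of all genes tested. Their median was 0.15, and their summed level was 7431 to 17422 CPM at ZT0 and 10651 to 17779 CPM at ZT6. The defining markers Cx3cr1 (1299 ± 607 and 1327 ± 384 CPM) and P2ry12 (933 ± 536 and 982 ± 266 CPM) were well above 0 in every library. Which cells the inflammatory transcripts came from was not tested. In bulk libraries, fewer cells of a type and less RNA per cell cannot be told apart.

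Of 20 chaperone genes of the heat shock list, 11 rose and none fell (median 0.64). Hspa1a, the inducible HSP70 (chromosome 17, 34969190 to 34972156), had 2.46, 5.01, 3.41 and 51.9 CPM at ZT0 and 322, 373, 308, 438 and 1192 CPM at ZT6 (log2 fold change 5.07, SE 1.22, adjusted p = 0.0117). The groups did not overlap, though ZT0 replicate 4 was 10 times the next ZT0 library and ZT6 replicate 5 nearly 3 times the next ZT6 library. The call was lost without ZT0 replicate 1 (adjusted p = 0.0588), without ZT0 replicate 2 (0.0686) and with limma-voom (0.0888). Its near-identical neighbour Hspa1b (chromosome 17, 34956436 to 34959238), with which reads may be shared, had 1.13, 1.16, 1.06 and 88.2 CPM against 577 to 1899 CPM and was not called (adjusted p = 0.082). Without ZT0 replicate 4 its adjusted p was 0.0078. Hspa1b was named after its values were seen.
Hspb1, the small chaperone HSP27, had 3.79, 3.19, 2.17 and 4.86 CPM at ZT0 and 30.4, 45.3, 45.7, 63.8 and 126 CPM at ZT6, 17.7-fold higher (log2 fold change 4.15, SE 0.72, adjusted p = 0.000279; 0.0501 with limma-voom). Bag3, a co-chaperone of HSP70 in selective autophagy, rose 5.96-fold from 13.2 ± 2.64 to 78.9 ± 27.1 CPM, and Hsph1, an HSP70 exchange factor, 2.12-fold from 102 ± 6.10 to 216 ± 40.4 CPM. ZT6 replicate 5 was the highest library for all 4 genes.

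Stress genes of the endoplasmic reticulum and of the integrated stress response rose in 8 of 22 cases, and none fell (median 0.33). Hspa5, the reticulum's HSP70 known as BiP, rose from 736, 1059, 1050 and 713 CPM to 1671, 2073, 1848, 2010 and 2128 CPM (log2 fold change 1.13, SE 0.18, adjusted p = 0.000117). Herpud1, a factor of protein degradation at the reticulum, rose 3.33-fold from 88.1 ± 16.6 to 293 ± 65.4 CPM. Ddit3, the transcription factor CHOP, rose 3.69-fold from 17.9 ± 2.09 to 66.3 ± 14.8 CPM. Ppp1r15a, the phosphatase subunit that reverses the translational block, rose 3.02-fold from 118 ± 29.6 to 355 ± 52.8 CPM (adjusted p = 0.000231). The amino acid genes Asns (log2 fold change -0.07), Psat1 (0.18) and Phgdh (0.10) were not called.
Gdf15, a stress-induced hormone of the TGF beta family (chromosome 8, 70629393 to 70632456), had 0.564, 2.43, 2.65 and 10.4 CPM at ZT0 and 59.3, 98.1, 107, 68.5 and 74.1 CPM at ZT6 (log2 fold change 4.34, SE 1.00, adjusted p = 0.00768; 0.158 with limma-voom). ZT0 replicate 4 was again the highest of its group. Of 18 genes of the p53 and Gadd45 list 8 rose and none fell (median 0.55). Gadd45b, a stress sensor, went from 5.88, 6.32, 7.34 and 19.6 CPM to 50.9, 80.9, 62.9, 52.5 and 66.9 CPM (adjusted p = 0.00659; 0.0635 without the single-sex libraries). The pro-apoptotic Bbc3 (18.5 ± 3.77 to 55.3 ± 7.64 CPM) and Pmaip1 (19.6 ± 3.00 to 93.6 ± 16.5 CPM) rose 2.99-fold and 4.76-fold. The p53 targets Mdm2 (log2 fold change 0.27), Ccng1 (0.07) and Phlda3 (0.10) did not pass the test. Other p53 targets did. Plk2 (log2 fold change 0.96 to 1.08) and Trp53inp1 (0.53 to 0.62) were called higher in each of 9 fits that left out 1 WT library. Cdkn1a, described above, was also called higher.
In the antioxidant list 4 of 17 genes rose and none fell, with a median of 0.14. Hmox1, heme oxygenase 1, rose 3.63-fold from 52.6 ± 10.1 to 191 ± 11.8 CPM and Osgin1, an oxidative stress gene, 8.05-fold from 2.30 ± 0.666 to 18.5 ± 6.37 CPM. The NRF2 targets Nqo1 (log2 fold change -0.15), Gclc (0.18) and Gclm (0.14) were not called. Srxn1, another NRF2 target, was called higher. That call was kept in 5 of 9 fits that left out 1 WT library (log2 fold change 0.50 to 0.74). It was lost without the single-sex libraries (adjusted p = 0.317). Asns, Psat1, Phgdh, Mdm2, Ccng1, Phlda3, Nqo1, Gclc, Gclm, Plk2, Trp53inp1 and Srxn1 were named after their values were seen.

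**Figure D3:**
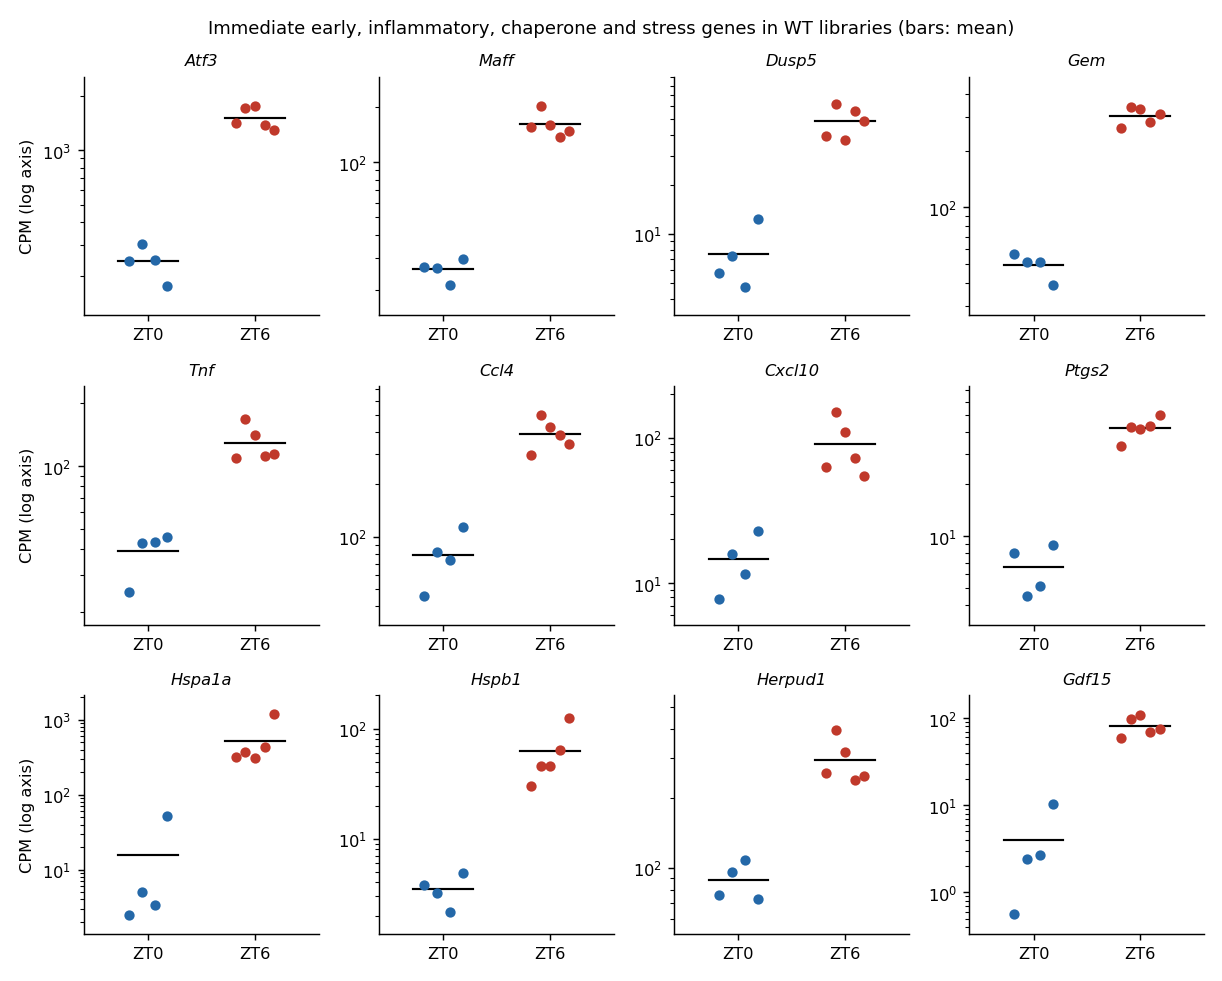
CPM (log axis) of 12 stress and inflammatory genes in the 4 ZT0 (blue) and 5 ZT6 (red) WT libraries, 1 point a library, with the group mean as a bar. No gene overlaps between the times, and for Hspa1a and Gdf15 1 ZT0 library, replicate 4, lies well above the other 3.

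Of 19 tested genes that glucocorticoids induce in many tissues, 9 rose and none fell, with a median of 0.93. Sgk1, a serum- and glucocorticoid-induced kinase, rose from 138, 272, 306 and 176 CPM to 507, 567, 666, 495 and 643 CPM (adjusted p = 0.00131). Cebpb rose 3.76-fold (30.2 ± 8.60 to 113 ± 24.5 CPM) and the metallothionein Mt1 2.22-fold (53 ± 8.27 to 118 ± 25.8 CPM). Fkbp5, a chaperone and one of the most direct targets of the receptor, had 37.2 to 51.9 CPM at ZT0 and 39.7 to 51.7 CPM at ZT6, with overlap (log2 fold change -0.03, SE 0.11, adjusted p = 0.962). Klf9 (log2 fold change -0.21) and Zbtb16 (-0.06), also direct targets, were not called. Tsc22d3, a further direct target known as GILZ, was called higher (log2 fold change 0.61, SE 0.16, adjusted p = 0.0317). That call was lost in 5 of 9 fits that left out 1 library, with adjusted p-values of 0.132, 0.0886 and 0.102 without ZT0 replicates 1, 2 and 4 and of 0.125 and 0.0663 without ZT6 replicates 2 and 5. Fkbp5, Klf9, Zbtb16, Tsc22d3 and Sgk1 were named after their values were seen. Per1, Nfkbia and Cdkn1a, described above, count in this list too.

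Of 18 BMP and Id genes 3 rose and none fell (list median 0.03). Id2, a dominant-negative partner of differentiation factors, had 85.8, 106, 97.9 and 96.6 CPM at ZT0 and 305, 413, 391, 295 and 251 CPM at ZT6, 3.42-fold higher (log2 fold change 1.78, SE 0.22, adjusted p = 1.91e-05). The inhibitory Smad7 (31.4 ± 9.96 to 78.4 ± 7.96 CPM) and the ligand Bmp2 (19.7 ± 3.23 to 50.4 ± 13.5 CPM) rose 2.5-fold and 2.56-fold. Of 16 Notch genes only Hes1, the effector repressor, rose (18.1 ± 4.31 to 41.0 ± 3.11 CPM, adjusted p = 0.00822; 0.072 without the single-sex libraries).
Of 24 glycolysis and hypoxia genes 3 rose: Pfkfb3, which raises the allosteric activator of glycolysis (77.6 ± 10.8 to 230 ± 43.4 CPM), the hexokinase Hk2 (70.7 ± 24.0 to 178 ± 13.2 CPM) and the glucose transporter Slc2a1. The Slc2a1 call was lost without the single-sex libraries (adjusted p = 0.125) and without ZT0 replicate 1 (0.0618). Of 24 genes of DNA replication Pcna, the polymerase clamp, rose 1.49-fold (176 ± 12.3 to 262 ± 11.6 CPM, adjusted p = 0.00205), and the licensing factor Cdt1 was called higher (adjusted p = 0.0313). The Cdt1 call was lost in 5 of 9 fits that left out 1 library, with adjusted p-values of 0.0756, 0.137 and 0.0967 without ZT0 replicates 1, 2 and 3 and of 0.121 and 0.0664 without ZT6 replicates 2 and 4. It was also lost with library size alone (0.0865), with only the 19 WT libraries (0.074), with the ribosomal RNA covariate (0.0726) and without the single-sex libraries (0.0726). None of 24 genes of mitosis was called, and neither was any of 24 of oxidative phosphorylation or 24 ribosomal protein genes. Over all genes tested 2.58% were called, so no call in a list of 24 is near that share. All 24 ribosomal protein genes had positive values, with a median of 0.21, while 46.3% of all genes tested had positive values.
The 10 genes with the smallest p-values in the comparison included 7 not yet named. Zbtb10, a zinc finger gene, rose 3.2-fold (38.4 ± 6.71 to 123 ± 17.5 CPM, adjusted p = 1.87e-05). Irs2, an adaptor of the insulin receptor, rose 2.57-fold from 68.3 to 86.3 CPM at ZT0 to 198 to 209 CPM at ZT6. Klf11 rose 2.83-fold, Ifrd1, a transcriptional coregulator, 4.97-fold, the autophagy receptor Sqstm1 2.41-fold, Tent5c, a poly(A) polymerase, 3.73-fold, and Gem, a small GTPase that limits calcium channels, 6.13-fold (49.8 ± 7.63 to 305 ± 32.0 CPM). In each of the 7 every ZT6 library was above every ZT0 library.

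The OPC markers, which check the labelled cell type, were abundant in all 9 libraries. Of 20 none was called, with a median of 0.11 and a summed level of 17502 to 21862 CPM at ZT0 and 17586 to 23500 CPM at ZT6. Pdgfra, the receptor used for purification, had 4024, 3466, 3950 and 4882 CPM at ZT0 and 4424, 3254, 3753, 4405 and 4428 CPM at ZT6 (log2 fold change -0.01, SE 0.12, adjusted p = 0.99). Cspg4, the NG2 proteoglycan, was at 880 ± 136 and 1007 ± 154 CPM and the lineage factor Olig2 at 602 ± 65.0 and 593 ± 104 CPM. Of 23 tested genes of oligodendrocyte differentiation none was called (median 0.06). Pdgfra, Cspg4, Olig2, Cx3cr1 and P2ry12 were named after their values were seen.

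**Figure D4:**
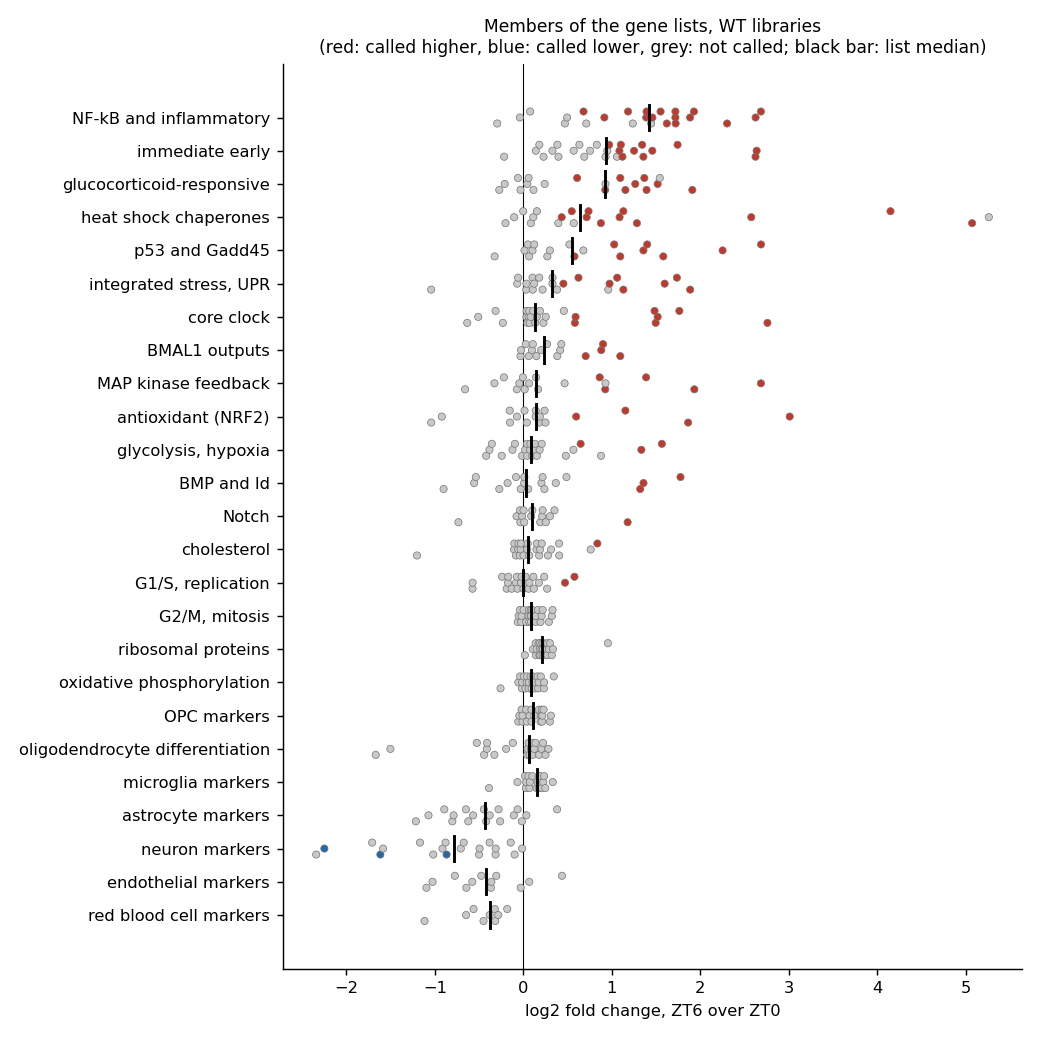
Log2 fold change (ZT6 over ZT0, horizontal axis) of each tested member of 25 gene lists (rows), 1 point a gene, red where called higher, blue where called lower, grey where not called, with the list median as a black bar. The NF-kB and inflammatory list has the median farthest to the right (1.42), OPC markers and oxidative phosphorylation genes lie close to 0, and the 20 neuron markers are all below 0.

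Among the 86 genes that fell, Ptgds, the prostaglandin D2 synthase (chromosome 2, 25466709 to 25470046), had 7.90, 37.1, 28.3 and 12.7 CPM at ZT0 and 1.83, 2.90, 4.70, 4.53 and 4.59 CPM at ZT6, without overlap (log2 fold change -2.53, SE 0.51, adjusted p = 0.00181; 0.0543 with limma-voom). Rasgrp1, an activator of Ras, had 6.17, 16.8, 6.55 and 6.84 CPM against 1.75 to 3.08 CPM (adjusted p = 0.000864), and Baiap3, a factor of vesicle release, 4.72 ± 1.40 against 1.22 ± 0.664 CPM (adjusted p = 0.00659; 0.0966 without the single-sex libraries). These 3 genes were called in each of the 9 fits that left out 1 WT library.
Other genes that fell are known from neurons. Gabra5, a GABA receptor subunit, had 2.66, 12.8, 5.22 and 7.82 CPM at ZT0 and 0.469 to 2.28 CPM at ZT6 (adjusted p = 0.007; 0.0773 without ZT0 replicate 2). Grin2b, an NMDA receptor subunit, had 18.3, 62.5, 23.8 and 51.5 CPM against 4.69, 6.31, 10.5, 9.15 and 12.6 CPM (adjusted p = 0.0218). Nrgn, a calmodulin-binding protein of dendrites, had 4.23, 27.9, 7.96 and 16.2 CPM against 1.75 to 4.51 CPM, with overlap (adjusted p = 0.00709). In all 3, ZT0 replicate 2 was the highest library. The call of Grin2b was also lost without ZT0 replicate 4 (adjusted p = 0.066), ZT6 replicate 1 (0.0696) or ZT6 replicate 2 (0.075). Without ZT0 replicate 2 the adjusted p of Grin2b was 0.125 and that of Nrgn 0.111, and the number of genes called lower fell from 86 to 17. Without ZT6 replicate 1 it was 43, without ZT6 replicate 2 it was 35, and without ZT0 replicate 3 it was 125.
Cdkl2, a kinase (adjusted p = 0.0275), Ppp1r1b, the phosphatase inhibitor DARPP-32 (0.029), Sst, the neuropeptide somatostatin (0.0365), and Tmem151a (0.0421) were also called lower. With 1 library left out at a time they were called in 3, 4, 3 and 3 of 9 fits, and none of the 4 was called without ZT0 replicate 2 (adjusted p = 0.466, 0.383, 0.215 and 0.366).
Of 20 neuron markers 3 fell and none rose, all 20 had negative values, and the median was -0.79. Under the 21 alternatives, 0 to 8 of the 20 were called lower. Over all 22798 genes tested, 12243 had negative values. The markers that fell were Stmn2, a microtubule regulator of growing axons (76.7 ± 44.5 to 25.0 ± 8.85 CPM, adjusted p = 0.0159), the neurofilament Nefl (10.4 ± 4.52 to 5.72 ± 0.883 CPM) and the glutamate transporter Slc17a7 (10.03 ± 6.65 to 2.07 ± 2.02 CPM). All 3 calls were lost without ZT0 replicate 2 (adjusted p = 0.118, 0.424 and 0.31), and also without ZT0 replicate 4 (0.0899, 0.058 and 0.0615), ZT6 replicate 1 (0.0597, 0.0512 and 0.125) or ZT6 replicate 2 (0.0634, 0.0976 and 0.142). The summed level of the 20 markers was 1380 to 2261 CPM at ZT0 and 1255 to 1616 CPM at ZT6, so the ranges overlapped. Their part in the other lower calls was not tested.
None of the 18 astrocyte, 12 endothelial or 9 red blood cell markers tested was called. Under the alternatives, up to 3 astrocyte markers, 1 endothelial marker and 1 red blood cell marker were called lower. Their medians were -0.43, -0.42 and -0.38, and 16, 10 and 9 of them had negative values. The astrocyte protein Gfap was at 27.4 to 40.9 CPM at ZT0 and 6.61 to 23.9 CPM at ZT6, separated but not called (log2 fold change -1.21, SE 0.37, adjusted p = 0.0791). Gfap was called lower with DESeq2 (adjusted p = 0.045), with library size alone (0.0431), with no filter (0.0234), with only the groups compared (0.0324), with the replicate block (0.0113) and without ZT6 replicate 3 (0.0465). Aldh1l1, an astrocyte enzyme, was not called either but was called lower in 6 alternatives, with adjusted p-values from 0.0218 to 0.0392.

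The same contrast was made in the KO libraries, which share no library with WT. The floxed deletion could not be checked, since the gene count of Arntl adds reads from outside the deleted part; it was 20.8 ± 2.56 CPM in KO at ZT0 (n = 4) and 20.8 ± 1.93 CPM at ZT6 (n = 7). In KO 2316 genes (10.2%) were called, 1493 higher (6.55%) and 823 lower (3.61%). The count was 611 with KO ZT0 replicate 1 left out. Leaving out KO ZT0 replicate 3 gave 1070, and leaving out KO ZT6 replicate 2 gave 1505. By sex-linked transcripts, KO ZT0 replicate 1 held RNA of females only. KO ZT6 replicates 1, 5 and 6 held RNA of males only. Of the 502 genes called higher in WT, 499 were positive in KO (49% of all genes tested were) and 367 (73.1%) were called higher. Of the 86 called lower in WT, 80 were negative in KO and 44 (51.2%) were called lower. The median change of the 502 was 0.88 in WT and 0.72 in KO, and that of the 86 was -1.24 and -0.68. Both sets were chosen by their WT calls, which favours large WT values. These medians therefore do not measure a difference between the genotypes.
Ciart rose in KO from 10.6 ± 3.54 CPM to 52.0 ± 32.5 CPM (adjusted p = 0.000696), where the ZT6 libraries ran from 8.72 to 88.5 CPM and overlapped ZT0. Atf3 rose from 228 ± 79.5 to 1284 ± 536 CPM and Tnf from 44.0 ± 18.6 to 119 ± 43.7 CPM. Microglial markers moved with these inflammatory genes in KO. All 20 had positive values there, 11 were called higher and the median was 0.79. In WT 18 had positive values, 0 were called and the median was 0.15. The WT median changed sign without ZT0 replicate 1 and without the single-sex libraries. Csf1r, the receptor microglia need to survive, rose in KO by 0.99 on the log2 scale (adjusted p = 0.0103) and Laptm5, a lysosomal protein, by 1.03 (adjusted p = 0.00938). The part of these cells in the KO values was not tested.
Per1 rose by 1.5 on the log2 scale in KO and by 1.52 in WT. Cry1 was not called in KO (34.8 ± 5.58 and 39 ± 9.04 CPM, adjusted p = 0.522), but its difference between the genotypes was not called either (adjusted p = 0.562).
The direct test of the difference, the KO change minus the WT change, called 0 genes with edgeR (lowest adjusted p = 0.535; 1949 genes, or 8.55%, at an unadjusted p under 0.05). DESeq2 called 1 gene, Ccr2. Without WT ZT0 replicate 4, 46 genes were called. Ccr2 is a chemokine receptor of monocytes. It was called lower in WT, with overlap, from 1.57, 8.10, 8.09 and 3.52 CPM to 0.420 to 2.37 CPM (log2 fold change -1.81, SE 0.50), a call lost without ZT0 replicate 2 (adjusted p = 0.191), ZT0 replicate 3 (0.138), ZT6 replicate 1 (0.0751), ZT6 replicate 2 (0.122) or ZT6 replicate 4 (0.118), and rose in KO (1.58, SE 0.50). The difference was 3.40 (SE 0.71, unadjusted p = 2.92e-05, adjusted p = 0.535). Arrdc3, an arrestin-like regulator of receptor traffic, rose from 50.2 ± 9.13 to 98.7 ± 11.6 CPM in WT and was at 72.4 and 82.8 CPM in KO (difference -0.78, SE 0.19, adjusted p = 0.535). The differences of Tubgcp5 (0.93), Disc1 (0.69) and Cyb5b (-0.45) had the same adjusted p.

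**Figure D5:**
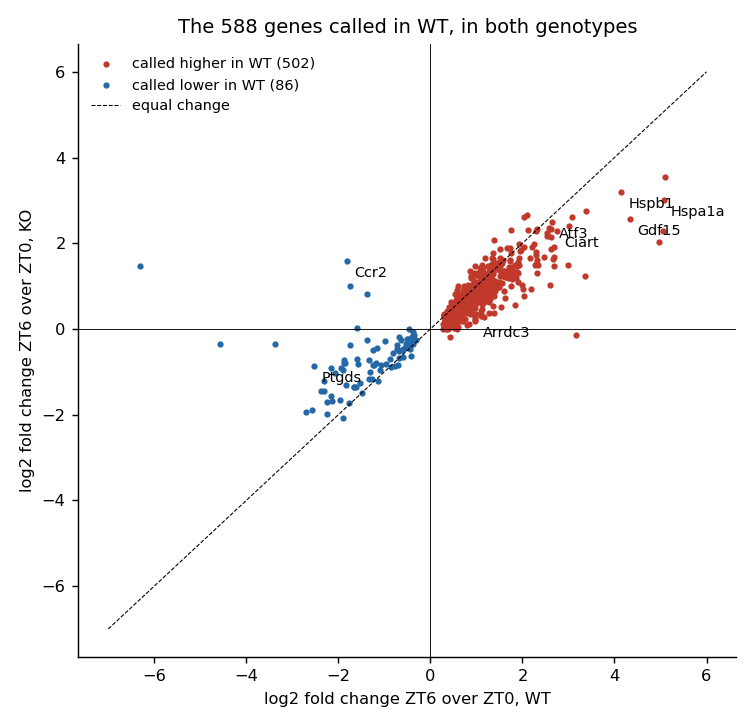
Log2 fold change ZT6 over ZT0 in KO (vertical axis) against WT (horizontal axis) for the 588 genes called in WT, 1 point a gene, red where called higher in WT and blue where lower; the dashed line marks equal change. Of the 502 red points 499 lie above 0 in KO, and Ccr2 lies above 0 in KO while below 0 in WT. Because the genes were chosen by their WT calls, a position off the dashed line is not read as a genotype difference.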

How the data were processed

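Poly(A) RNA was sequenced in paired ends from 38 libraries of immunopanned OPCs, and the deposited table holds raw counts per gene made by the authors. Per the submitters' processing notes, fastp, HISAT2 2.0.5 and featureCounts 1.5.0-p3 were used with GRCm38; the sources used here do not give the annotation release or strand setting, so overlapping and antisense genes may share reads.

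From these counts, edgeR 4.0.16 (R 4.3.3) fitted 1 quasi-likelihood model of 8 groups to all 38 libraries, after filterByExpr and TMM scaling, with 30 residual degrees of freedom. Genes were called at a Benjamini-Hochberg adjusted p under 0.05 over the 22798 genes tested, which held 99.9% of the counts. CPM are counts per M (mega) counts of TMM-scaled library size. Log2 fold changes and SE come from the model, and folds are these log2 fold changes converted back to ratios. The procedure was tested on simulated data. DESeq2 1.42.0 and limma-voom (limma 3.58.1), other scalings and filters, fewer libraries, a replicate block and each WT and KO library left out were alternatives.

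The comparison and the 36 gene lists were chosen with earlier results of these data known. The rule for names took the clock genes, the 12 largest changes in each direction among called protein-coding genes with a mean log2 CPM above 1, the 10 smallest p-values, the 5 smallest p-values of the genotype difference, and up to 4 genes of each list by p-value. The text describes only some of the clock and list genes this took; names outside it are stated to be chosen after their values were seen. Replicates pool 2 mice each. The least different of 16 pairs of replicates of 1 group still had a chi-square of 10.2 per degree of freedom over 18867 genes, so none was a repeated library.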

Additional observations from a re-analysis of the deposited data

Results flagged for a closer look

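The groups of values screened were those of 86 of the printed genes and of the library measures, at ZT0 and ZT6 in WT. The other printed genes were not screened. Of these 180 groups, 14 held 1 library far from the rest of its group by Dixon's test at the 95% level. Chance flags about 1 in 20 groups.

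WT ZT0 replicate 4 was the highest of its group for 5 genes. It had 51.9 CPM of Hspa1a (2.46 to 5.01 in the other 3 libraries) and 88.2 CPM of Hspa1b (1.06 to 1.16). It also had 35.1 CPM of Il1b (1.59 to 3.38), 28 CPM of Dusp4 (12.3 to 13.9) and 19.6 CPM of Gadd45b (5.88 to 7.34).

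WT ZT6 replicate 5 was the highest of its group for Hspa1a (1192 CPM, others 308 to 438), Hspa1b (1899 CPM, others 577 to 672) and Bag3 (127 CPM, others 62.8 to 68.7). It was also the most deeply sequenced, with 34.3 M counts against 21.6 to 24.2 M.

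WT ZT0 replicate 1 had the highest Per2 (42.9 CPM, others 28.7 to 30.4) and the lowest Tnf (25.0 CPM, others 42.7 to 45.8). Its mitochondrial share of 1.44% was the lowest (others 1.89 to 1.98%), and its 29763 genes detected were the most (others 24290 to 24923). WT ZT0 replicate 2 had 16.8 CPM of Rasgrp1 (6.17 to 6.84 in the others).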

How the results depend on the processing

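Of the verdicts on single genes under the alternatives, 4374 kept their side of the threshold, 141 lost a call and 56 gained one. No gene called in the main fit or in the alternative changed direction. Genes called in neither could change sign. With 1 library left out, the log2 fold change of Fos ran from -0.087 to 0.36. The WT count of 588 was 359 without the single-sex libraries, and it ran from 396 to 599 when 1 library was left out. The KO count of 2316 was 1496 with only the groups compared, 1080 without the single-sex libraries and 1422 with the ribosomal RNA share as a covariate, and it ran from 611 to 2624 with 1 library left out. The count of 0 for the difference was 1 with DESeq2 and ran from 0 to 46 with 1 library left out. The single-sex and ribosomal RNA alternatives were chosen after seeing the data. Among lists whose medians are printed, those of the BMP and Id, antioxidant, interferon, oligodendrocyte differentiation and microglial genes changed sign under at least 1 of 21 alternatives. The cause of these changes was not tested. With a replicate block, fitted to only the groups compared, the counts were 681 in WT, 2832 in KO and 0 for the difference. The same groups without the block gave 498 in WT, 1496 in KO and 0 for the difference. Libraries of the same number in WT ZT0 and ZT6 had correlations of 0.127, -0.001, -0.041 and 0.126. Those of different numbers ran from -0.304 to 0.203, so this check could not decide whether the numbers pair the libraries. DESeq2 called 820 genes in WT (583 higher, 237 lower) and limma-voom 544 (497 higher, 47 lower). No limit of detection was computed, so a gene without a call is not shown to be unchanged.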
